A study of Rattus norvegicus with 6 samples.

Results

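The Toll-like receptors and the proteins that hand them their ligands are the innate sensors of microbial products. Looked for on Affymetrix rat expression arrays were 10 genes of this system: the lipopolysaccharide-handling genes Cd14, Ly96 and Lbp, the receptors Tlr2, Tlr3, Tlr4, Tlr5, Tlr6 and Tlr7, and the adaptor Myd88. A gene was taken when a probe set of the value table carried its symbol alone in the probe annotation. That gave 7 of the 10 genes, with 1 probe set each, out of 31042 probe sets and 14217 genes. Tlr3, Tlr5 and Tlr6 had no such probe set and were not analysed here.

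The arrays came from renal inner medulla of male Sprague-Dawley rats. The IMCD group (3 arrays) holds the inner medullary collecting duct cells that low-speed centrifugation enriched, and the nonIMCD group (3 arrays) is the cells recovered from its supernatant. All rats had received 1 mg furosemide, a loop diuretic, into the peritoneum 30 minutes before death, and all tissue had been digested for 75 minutes at 37 °C with collagenase B and hyaluronidase, so both fractions carry these exposures and no untreated or undigested tissue was compared. Per the labels the rats were 6 weeks old for IMCD replicate 1 and 10 weeks old for the other 5 arrays, and 7 rats were used in 3 isolations. The labels do not tie rats to arrays, so the p-values measure the spread between arrays of a fraction. Both groups are mixtures of cells, which the markers below describe.

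Lipopolysaccharide of Gram-negative bacteria is carried by the lipopolysaccharide-binding protein (Lbp) to Cd14, a surface co-receptor without a signalling domain, which passes it to the complex of Tlr4 and Ly96 (MD-2). Tlr2 recognises bacterial lipopeptides, together with Tlr1 or Tlr6, and Tlr7 recognises single-stranded RNA in endosomes. These receptors signal through the adaptor Myd88 to the transcription factor NF-kB, and macrophages and dendritic cells are known for using all of them, while renal tubule epithelium is known to carry Tlr4 and to meet bacteria that ascend from the bladder.

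The fractions differed in cell markers. Among 20 measured leukocyte markers, 18 were called lower in IMCD and 0 higher, and their summed intensity was 6511 to 7552 on IMCD arrays against 169023 to 197583 on nonIMCD arrays. No leukocyte marker was at 0. The highest negative control was an intensity of 78.4, read on nonIMCD array 1. Itgam, Itgax and the brightest probe set of Aif1 were under it on all 3 IMCD arrays. The Aif1 probe set is of the _s_at kind, which may cross-hybridise, and the dimmer Aif1 probe set averaged 124 in IMCD and 98.0 in nonIMCD and did not pass (adjusted p = 0.558). Of 16 principal cell markers 14 were higher in IMCD and 0 lower, with summed intensities of 279849 to 298677 on IMCD arrays and 141150 to 183896 on nonIMCD arrays. All 13 endothelial markers were lower in IMCD (summed 16977 to 21239, against 85785 to 90678 in nonIMCD). Lower too were 7 of 13 interstitial cell and pericyte, 4 of 5 thin limb, 3 of 7 thick ascending limb and 3 of 3 erythroid markers, while 3 of 8 intercalated cell markers were higher, with no call in the opposite direction in any of these 5 lists. The log2 ratio of 3' to 5' signal of control transcripts, a measure of RNA integrity, was 0.69 ± 0.03 in IMCD, against 1.35 ± 0.14 in nonIMCD (SD, n = 3 each). These shifts went with every difference below, and their part in the results was not tested. In such bulk samples, fewer cells of a type and less RNA per cell cannot be told apart.

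The 7 genes did not move as a block. In IMCD, 4 were lower (Tlr7, Tlr2, Lbp and Ly96), 0 were higher, and 3 did not pass the test (Tlr4, Cd14 and Myd88), at an adjusted p under 0.05 in limma's fit of all probe sets. Of all 14217 genes, each at its brightest probe set, 15.7% were lower and 10.0% higher (25.8% in either direction). The median fitted log2 difference, IMCD minus nonIMCD, was -1.10 over the 7 genes and -0.09 over all genes. With Lbp and Tlr7, which were under the highest negative control on all IMCD arrays, at their bounds, the median of the 7 was -0.66. The arrays of the fractions did not overlap for any of the 7: the IMCD arrays were all below the nonIMCD arrays for 6 of them and above for Myd88, against 28.7% and 20.0% of all genes.

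**Figure D1:**
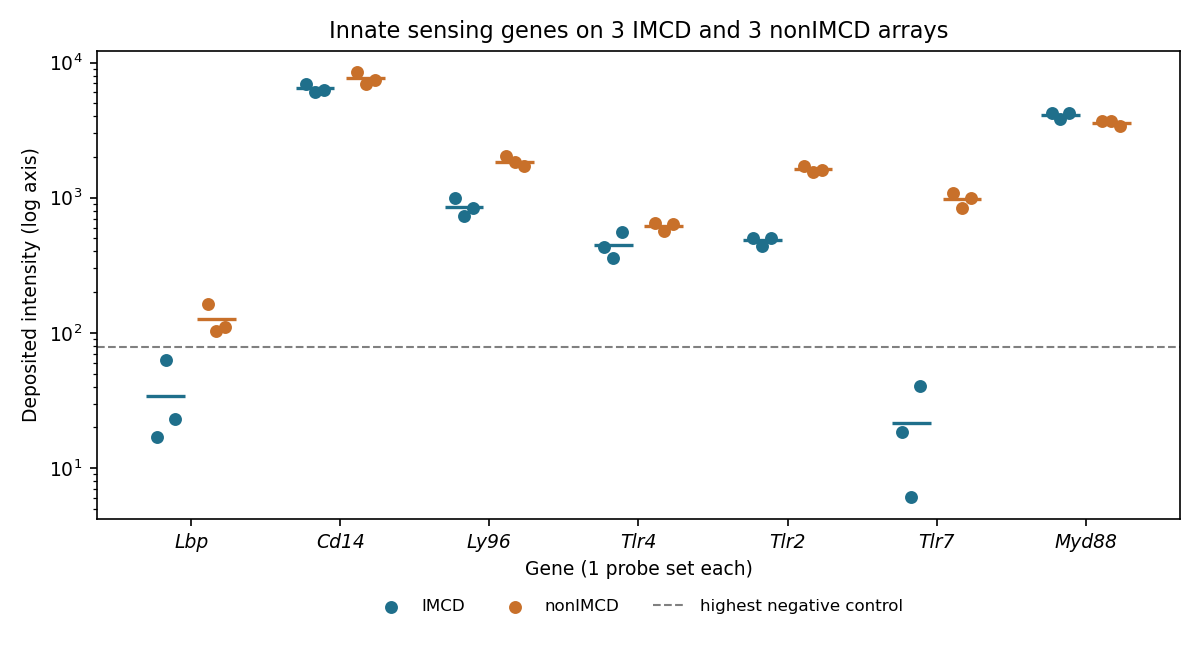
Deposited intensity (log axis) of the 7 genes on each of 3 IMCD and 3 nonIMCD arrays. Points are arrays, short lines are means, and the dashed line is the highest negative control (78.4). The points of Cd14 and Myd88 lie close together in both fractions, Tlr2 and Ly96 are clearly separated, and all IMCD points of Tlr7 and Lbp lie under the dashed line.

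Cd14 was slightly dimmer in IMCD as deposited, and whether the fractions are equal was not tested. Its intensity was 6988, 6079 and 6228 on IMCD arrays 1 to 3, against 8505, 6992 and 7451 on nonIMCD arrays 1 to 3. The highest IMCD array and the lowest nonIMCD array were almost equal, so the separation between groups was no wider than the spread inside them. The log2 difference of -0.25 ± 0.14 (SE) did not pass (adjusted p = 0.264), with a 95% interval of -0.59 to 0.09. Its sign depended on the scaling of the arrays: centring each array on its median gave 0.04 (adjusted p = 0.865), and quantile normalization gave -0.41 (adjusted p = 0.0813).

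The IMCD mean of Cd14 was 84.1% of its nonIMCD mean, and the median leukocyte marker had 1.72%. Cd14 was not alone in this distance. The share was 114% for Myd88, 72.4% for Tlr4, 46.3% for Ly96 and 29.8% for Tlr2. For the dim Lbp and Tlr7 it was 27.2% and 2.23%. The median endothelial marker had 22.8%, and the median interstitial cell and pericyte marker 26.2%. The median fitted log2 difference of the 20 leukocyte markers was -5.80. It was -5.68 with the 3 under the highest negative control on all IMCD arrays at their bounds. The markers Cd163 and Cd3e did not pass at their brightest probe sets, and Cd163 was under the highest negative control on 2 of 3 arrays of each fraction. The dimmer Cd3e probe set averaged 9.06 in IMCD and 668 in nonIMCD and was called lower (adjusted p = 0.00359, limma). Whether the difference of Cd14 differs from those of the markers was not tested.

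Ly96, the partner that makes Tlr4 able to bind lipopolysaccharide, was lower in IMCD. It had 990 (array 1), 737 (array 2) and 841 (array 3) in IMCD, against 2019, 1821 and 1703 in nonIMCD. The lowest nonIMCD array was well above the highest IMCD array. The log2 difference was -1.10 ± 0.16 (SE, adjusted p = 0.00627), an IMCD mean of 46.3% of that in nonIMCD. The call held under all 13 alternatives, with differences of -1.21 to -0.81.

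Tlr4, the lipopolysaccharide receptor itself, had 430, 355 and 558 on the IMCD arrays, against 652, 566 and 636 on the nonIMCD arrays. IMCD replicate 3 came close to the lowest nonIMCD array, and the IMCD arrays were more scattered than the nonIMCD arrays. The log2 difference of -0.47 ± 0.19 (SE) did not pass (adjusted p = 0.144), with a 95% interval of -0.95 to 0.0024. Under the alternatives it stayed negative, at -0.64 to -0.18, with adjusted p from 0.0686 to 0.539.

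Lbp, an acute-phase protein made mainly by the liver, was dim in both fractions. It had 17.0, 63.1 and 22.9 on the IMCD arrays, all under the highest negative control, against 164, 104 and 111 on the nonIMCD arrays. The value of 63.1, on IMCD array 2, was above the highest negative control of that array alone (45.2). The nonIMCD arrays were therefore at least 1.58-fold brighter, taking the highest negative control as the floor. The fitted difference passed (adjusted p = 0.0312, limma), with means of 34.3 ± 25.1 in IMCD, against 126 ± 32.7 in nonIMCD (SD, n = 3 each). The call was lost with the replicate number as a block (adjusted p = 0.0894), under both other scalings (adjusted p = 0.0513 with median centring and 0.0547 after quantile normalization), and without IMCD replicate 1 (0.0865), IMCD replicate 3 (0.0931), nonIMCD replicate 1 (0.0946), nonIMCD replicate 2 (0.0706) or nonIMCD replicate 3 (0.0704).

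Among the receptors for other ligands, Tlr2 was lower in IMCD with little scatter. It had 506, 436 and 505 on the IMCD arrays, against 1702, 1542 and 1605 on the nonIMCD arrays. The groups were far apart relative to the spread inside each. The log2 difference was -1.71 ± 0.13 (SE, adjusted p = 0.000776), so that the IMCD mean was 29.8% of the nonIMCD mean. Unlike Tlr7, Tlr2 was above the highest negative control on every IMCD array. It stayed past the threshold under all 13 alternatives (-1.75 to -1.43).

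Tlr7, the endosomal RNA sensor, was brighter than the negative controls in nonIMCD alone. It had 18.5, 6.07 and 40.5 on the IMCD arrays, all under the highest negative control, against 1086, 839 and 1000 on the nonIMCD arrays. The nonIMCD arrays were at least 12.4-fold brighter. The fit gave adjusted p = 0.000755 (limma), and the call held under all 13 alternatives.

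Myd88, the adaptor shared by these receptors, showed the other sign. It had 4231, 3849 and 4239 on the IMCD arrays, against 3685, 3709 and 3378 on the nonIMCD arrays. Every IMCD array was above every nonIMCD array, by a small margin. The log2 difference of 0.19 ± 0.12 (SE) did not pass (adjusted p = 0.315), with a 95% interval of -0.10 to 0.49. It passed with median centring (0.48, adjusted p = 0.0384) and not after quantile normalization (0.12, adjusted p = 0.52).

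**Figure D2:**
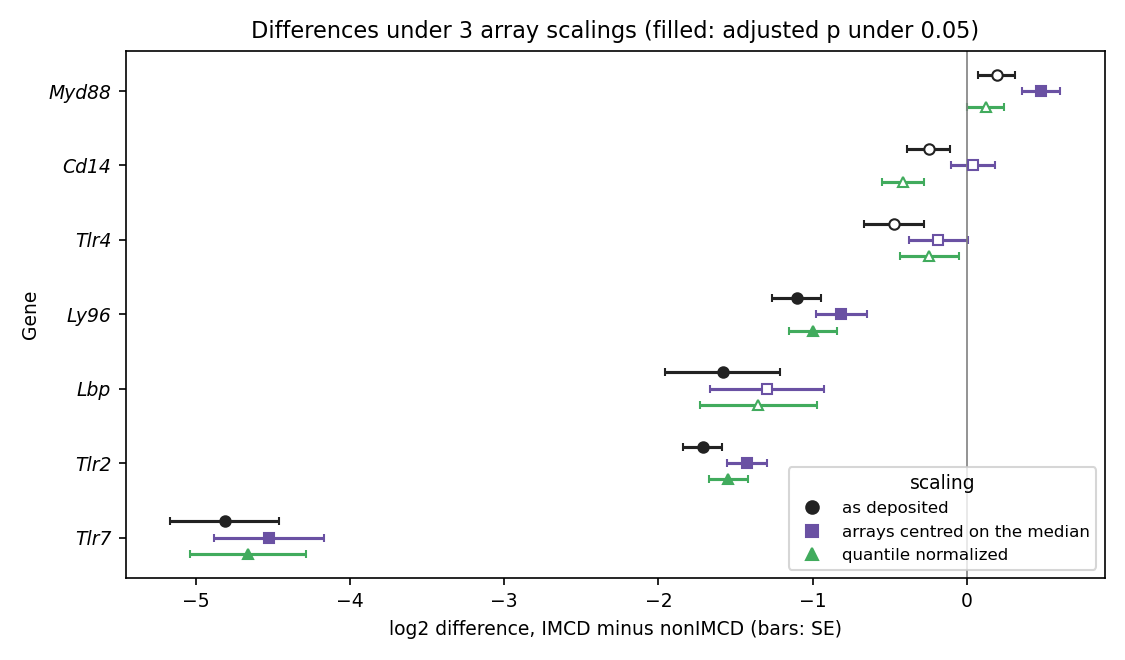
Log2 difference, IMCD minus nonIMCD, of the 7 genes with SE bars under the deposited scaling (circles), median centring (squares) and quantile normalization (triangles). Filled symbols passed an adjusted p of 0.05. Tlr7, Tlr2 and Ly96 are filled under all 3 scalings, Lbp only as deposited and Myd88 only with median centring, while Cd14 crosses 0.

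Because the scaling sets the zero of these differences, the genes were also compared within arrays. The ratio of each gene to Cd14 on the same array does not change when the whole array is multiplied by 1 factor. Quantile normalization is not such a factor, and the ratios were not computed after it. The fitted log2 differences of Tlr4 and Cd14 were -0.24 and -0.41 after it, against -0.47 and -0.25 as deposited, so their order reversed. Under both scalings the differences of Tlr2 and Ly96 lay below that of Cd14, and that of Myd88 above it. The log2 ratio of Tlr2 to Cd14 was lower in IMCD by -1.50 (SD 0.10 in IMCD and 0.07 in nonIMCD, n = 3 each), and that of Ly96 to Cd14 by -0.87 (SD 0.11 and 0.10). The ratio of Myd88 to Cd14 was higher by 0.44 (SD 0.09 and 0.15). For these 3 ratios the fractions did not overlap. Nor did they for the ratios of Lbp and Tlr7, whose IMCD values were under the highest negative control. For Tlr4 to Cd14 the fractions overlapped (-0.24, SD 0.34 in IMCD and 0.08 in nonIMCD). The share of all genes whose ratio to Cd14 does not overlap was not computed, so these separations have no background. An exact two-sided permutation test gave p = 0.1 for Tlr2, Ly96, Myd88, Lbp and Tlr7, and p = 0.4 for Tlr4. The exact permutation p-values were 0.12 and 0.4 after Benjamini-Hochberg adjustment over the 6 ratios. The exact permutation test allows no p under 0.1 with 3 arrays against 3, so this value only restates the missing overlap.

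The stretches before the RefSeq start of 3 genes are shown, since they belong to the adaptor, which did not pass the test, to the lipopolysaccharide receptor, which did not pass either, and to Tlr7, which was lower in IMCD by at least 12.4-fold. They are from RefSeq, build GRCr8, printed 5′ to 3′ on the gene's strand. Each holds the bases from 250 before the start in the promoter table up to the annotated gene: 250 bases for Myd88 (chr8:127956231-127956480, minus strand), 250 for Tlr4 (chr5:85160997-85161246, plus strand) and 148 for Tlr7 (chrX:30644176-30644323, plus strand). The windows of Cd14 and Tlr2 lie inside the annotated gene and are not shown. Capitals mark matches on either strand to AP-1 (TGANTCA), C/EBP (TTNNGNAA), GAGGAA, Sp1 (GGGCGG), the IRF consensus or the NF-kB consensus. GAGGAA is a longer run that holds the ETS core GGAA, and other GGAA runs are not marked.
Myd88: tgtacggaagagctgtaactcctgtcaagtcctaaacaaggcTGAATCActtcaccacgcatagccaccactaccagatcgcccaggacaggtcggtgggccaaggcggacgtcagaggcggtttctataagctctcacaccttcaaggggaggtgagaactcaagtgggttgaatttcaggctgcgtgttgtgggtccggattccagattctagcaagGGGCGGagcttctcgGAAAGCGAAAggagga
Tlr4: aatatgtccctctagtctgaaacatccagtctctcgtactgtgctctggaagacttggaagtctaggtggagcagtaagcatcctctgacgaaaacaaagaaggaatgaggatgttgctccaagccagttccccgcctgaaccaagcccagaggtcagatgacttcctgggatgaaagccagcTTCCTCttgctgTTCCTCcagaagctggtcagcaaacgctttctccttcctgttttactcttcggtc
Tlr7: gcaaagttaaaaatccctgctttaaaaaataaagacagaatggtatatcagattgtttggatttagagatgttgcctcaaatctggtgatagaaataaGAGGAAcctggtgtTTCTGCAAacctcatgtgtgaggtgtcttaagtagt

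The Myd88 stretch held 1 AP-1 match, 1 Sp1 match and 1 IRF match, the last beginning 16 bases before the start. In the same 250-base window, 6.34% of 33469 rat promoters held an AP-1 match, 30.5% an Sp1 match and 3.41% an IRF match. The Tlr4 stretch held 2 GAGGAA matches, both on the minus strand and beginning 67 and 55 bases before the start, and 23.3% of promoters held at least 1. The Tlr7 stretch held 1 GAGGAA and 1 C/EBP match, which 14.5% and 26.0% of promoters held in the same 148 bases. None of the 3 stretches held an NF-kB match, and no 2 of the marked matches overlapped. A match is a run of letters and was not tested as a binding site.

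Among 9 other measured receptors and partner proteins the test called 7 lower and 0 higher, while Hsp90b1 and Cnpy4 did not pass. Of all genes 15.7% were called lower. The median fitted log2 difference was -2.56, and -2.40 with Cd180, which was under the highest negative control on all IMCD arrays, at its bound. Ly86, the secreted partner of the Toll-related receptor Cd180, had 77.8 ± 21.4 in IMCD, against 3518 ± 284 in nonIMCD (SD, n = 3 each; adjusted p = 0.000204), and 1 of its 3 IMCD arrays was under the highest negative control. The single-stranded RNA receptor Tlr8 had 31.6, 84.0 and 6.35 in IMCD, with 2 of 3 arrays under the highest negative control, against 936, 1196 and 1101 in nonIMCD (adjusted p = 0.00319). The scavenger receptor Cd36, which can act with Tlr2, had 62.6 ± 45.5 in IMCD, against 1445 ± 360 in nonIMCD (adjusted p = 0.00336). Its probe set is of the _a_at kind, which can match several transcripts, and 2 of its 3 IMCD arrays were under the highest negative control.

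The other lower genes of this list are named after their values were seen. Tlr1, which pairs with Tlr2, had 145, 192 and 145 in IMCD, against 1038, 840 and 859 in nonIMCD (-2.40 ± 0.17, SE, adjusted p = 0.000651). Unc93b1, the chaperone that takes Tlr7 to endosomes, differed by -2.67 ± 0.12 (adjusted p = 0.000256). Cd180 was under the highest negative control on all IMCD arrays, so that nonIMCD was at least 3.38-fold brighter. Cnpy3, a chaperone of several Toll-like receptors, differed by -0.71 ± 0.13 (adjusted p = 0.0137), and its call was lost with median centring (adjusted p = 0.0667) and without nonIMCD replicate 1 (0.0533). The chaperone Hsp90b1 (0.15, adjusted p = 0.43, and called higher with median centring at 0.44, adjusted p = 0.0449) and Cnpy4 (-0.21, adjusted p = 0.527) did not pass.

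Among 25 measured adaptors, kinases and NF-kB genes, 20 missed the threshold, 1 was called higher and 4 lower, and the median log2 difference was -0.14. The 5 calls stand beside 25.8% of all genes called in either direction, so this share is near the background and not a result about the list. Relb, a subunit of the non-canonical NF-kB pathway, was higher, with 1408 ± 152 in IMCD, against 701 ± 67.0 in nonIMCD (SD, n = 3 each; 0.99 ± 0.15, SE, adjusted p = 0.00725). Irf5, a transcription factor of the Myd88 pathway in myeloid cells, had 55.7 ± 32.4 in IMCD, with 2 of 3 arrays under the highest negative control, against 675 ± 81.8 in nonIMCD (adjusted p = 0.0027). Btk, a kinase of B cells and myeloid cells, differed by -1.40 ± 0.21 (adjusted p = 0.00717).

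Tab1, a partner of the kinase Map3k7, differed by -0.59 ± 0.14 (adjusted p = 0.0303). Its call was lost with the replicate block (adjusted p = 0.0735), with median centring (0.164) and after quantile normalization (0.07). It was also lost without any 1 of the 6 arrays (adjusted p from 0.058 to 0.0886). The NF-kB subunit Nfkb1, named after its value was seen, was the fourth lower gene (-0.59, adjusted p = 0.0231). It lost its call with the block (0.0569), with median centring (0.144) and without IMCD replicate 1 (0.0768), IMCD replicate 3 (0.0729), nonIMCD replicate 1 (0.0782) or nonIMCD replicate 2 (0.0658). The block left 2 lower genes in this list, against 4 without it. Leaving out IMCD replicate 1, IMCD replicate 3, nonIMCD replicate 1 or nonIMCD replicate 2 also left 2.

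Among 18 measured inhibitors of the pathway, 4 were called higher and 0 lower, 14 missed the threshold, and the median log2 difference was 0.22. Of all genes 10.0% were called higher and 25.8% in either direction, and the number of inhibitors called is near the share for either direction. Tnfaip3 (A20), a ubiquitin-editing enzyme that limits NF-kB, had 32779, 32942 and 34146 in IMCD, against 13781, 12739 and 12358 in nonIMCD. The groups were far apart, with a log2 difference of 1.36 ± 0.12 (SE, adjusted p = 0.00118). The 2 probe sets of Socs1, an inhibitor of cytokine signalling, disagreed. The brighter was under the highest negative control on all nonIMCD arrays, so that on it IMCD was at least 2.90-fold brighter (adjusted p = 0.00219). The dimmer averaged 25.9 in IMCD and 109 in nonIMCD and did not pass (adjusted p = 0.397), so the direction of Socs1 is uncertain.

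Bcl3, an atypical IkB protein, differed by 1.00 ± 0.18 (adjusted p = 0.0145), and its dimmer probe sets by 1.58 and 1.05 (adjusted p = 0.00411 and 0.00994). The call of the brightest probe set was lost with the replicate block (adjusted p = 0.0616), and without IMCD replicate 1 (0.0525), IMCD replicate 2 (0.0508) or nonIMCD replicate 1 (0.0542). The fourth higher inhibitor, named after its value was seen, was Socs3 (0.69, adjusted p = 0.0361). It lost its call after quantile normalization (0.0504) and without IMCD replicate 1 (0.107), IMCD replicate 2 (0.105), nonIMCD replicate 1 (0.101) or nonIMCD replicate 3 (0.0896). Without IMCD replicate 1, IMCD replicate 2 or nonIMCD replicate 1, 2 inhibitors were higher. With median centring 8 were.

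**Figure D3:**
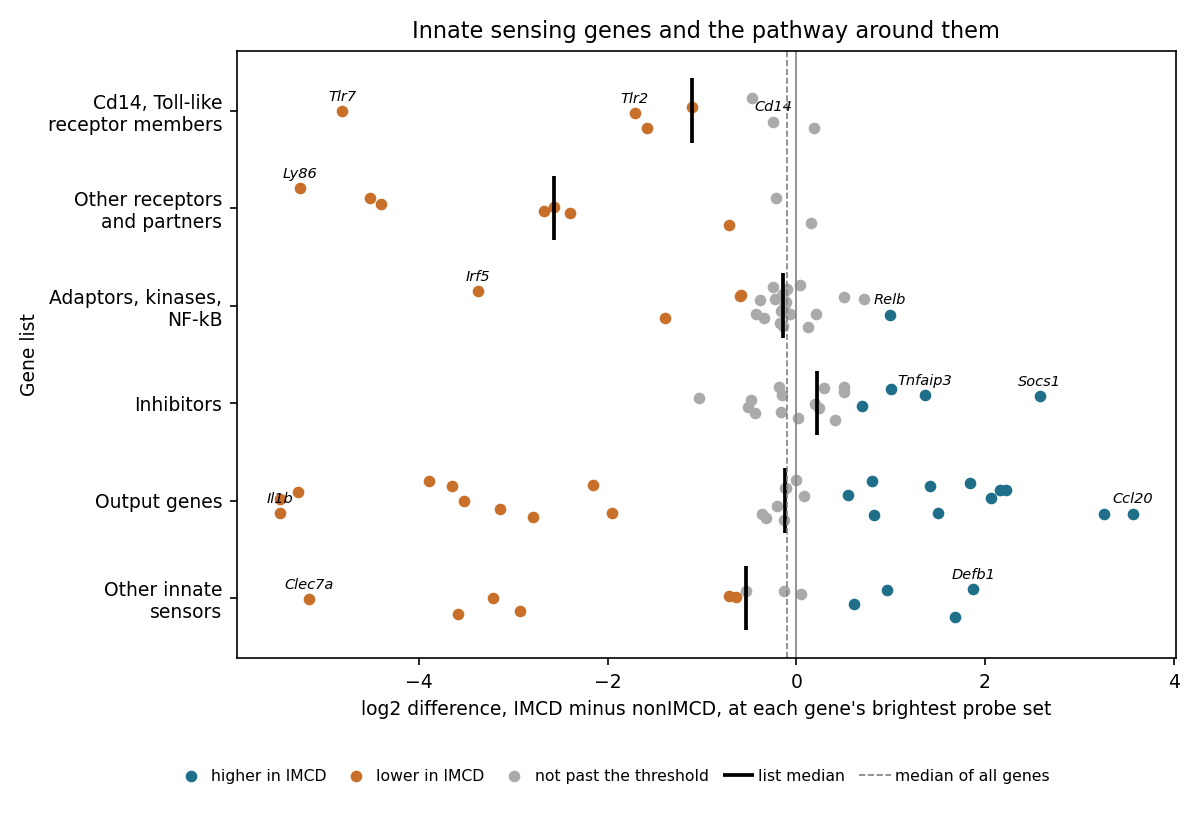
Log2 difference, IMCD minus nonIMCD, of every measured gene of the 7 innate sensing genes and 5 lists around them, each at its brightest probe set. Blue points were higher in IMCD, orange points lower and grey points not past the threshold. Points and medians are fitted values, which for genes under the highest negative control in a fraction are not exact. Black bars are list medians, from -2.56 for other receptors and partners to 0.22 for inhibitors, and the dashed line is the median of all genes (-0.09).

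The output genes of NF-kB and interferon signalling divided. Among 29 measured genes, 11 were called higher and 10 lower, 8 missed the threshold, and the median log2 difference was -0.12. Of all genes 10.0% were called higher and 15.7% lower. The chemokine Ccl20 had 4036, 4050 and 5109 in IMCD, against 278, 236 and 666 in nonIMCD. The cytokine Il6 had 2584, 1775 and 6307 in IMCD, against 379, 213 and 350.5 in nonIMCD. Ptgs2, the inducible prostaglandin synthase, had 7962 ± 1418 in IMCD, against 1707 ± 421 in nonIMCD (SD, n = 3 each; 2.22 ± 0.23, SE, adjusted p = 0.00202). Every IMCD array was above every nonIMCD array for these 3 genes, as for 20.0% of all genes. They were named for their large differences, so the separation is no further support.

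In the other direction, the largest differences were those of Ccl4, Il1b and Ccl3. Il1b had 141, 277 and 271 in IMCD, against 12285, 10557 and 8788 in nonIMCD (-5.47 ± 0.29, SE, adjusted p = 0.000353). The chemokine Ccl4 had 195 ± 62.5 in IMCD, against 9380 ± 2651 in nonIMCD (SD, n = 3 each; adjusted p = 0.000432). Ccl3, its close relative, differed by -5.28 ± 0.39 (SE, adjusted p = 0.000776). Tnf, named after its value was seen, had 5445, 5532 and 3538 in IMCD, against 5952, 5334 and 5165 in nonIMCD. The groups overlapped, and the difference did not pass (-0.21, adjusted p = 0.541).

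Sensors outside the Toll family also divided. Among 13 measured genes, 4 were called higher and 6 lower, 3 missed the threshold, and the median log2 difference was -0.53. Of all genes 10.0% were called higher and 15.7% lower. Of 13 alternatives, the higher call of Ripk2 held under 7. The lower calls of Casp1 and Nod1 held under 6 and 5. With the replicate block, limma's adjusted p was 0.0667 for Ripk2 and 0.0615 for Casp1, so both calls were lost. Ripk2, Casp1 and Nod1 are named after their values were seen. The epithelial defensin Defb1 was higher in IMCD, with 23329 ± 2486, against 6544 ± 2159 in nonIMCD (SD, n = 3 each; 1.87 ± 0.25, SE, adjusted p = 0.00483). The cytosolic RNA sensor Ifih1 (MDA5) differed by 1.69 ± 0.16 (adjusted p = 0.00157), and Sting1, the adaptor of cytosolic DNA sensing, by 0.96 ± 0.15 (adjusted p = 0.0091). Clec7a (dectin-1), a receptor for fungal glucan on myeloid cells, had 13.1, 21.8 and 17.9 in IMCD, against 1180, 1218 and 1139 in nonIMCD, at least 15.0-fold brighter in nonIMCD. Its adaptor Card9 was likewise under the highest negative control on all IMCD arrays, and nonIMCD was at least 3.79-fold brighter. Pycard, the inflammasome adaptor, differed by -3.22 ± 0.18 (adjusted p = 0.000399).

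**Figure D4:**
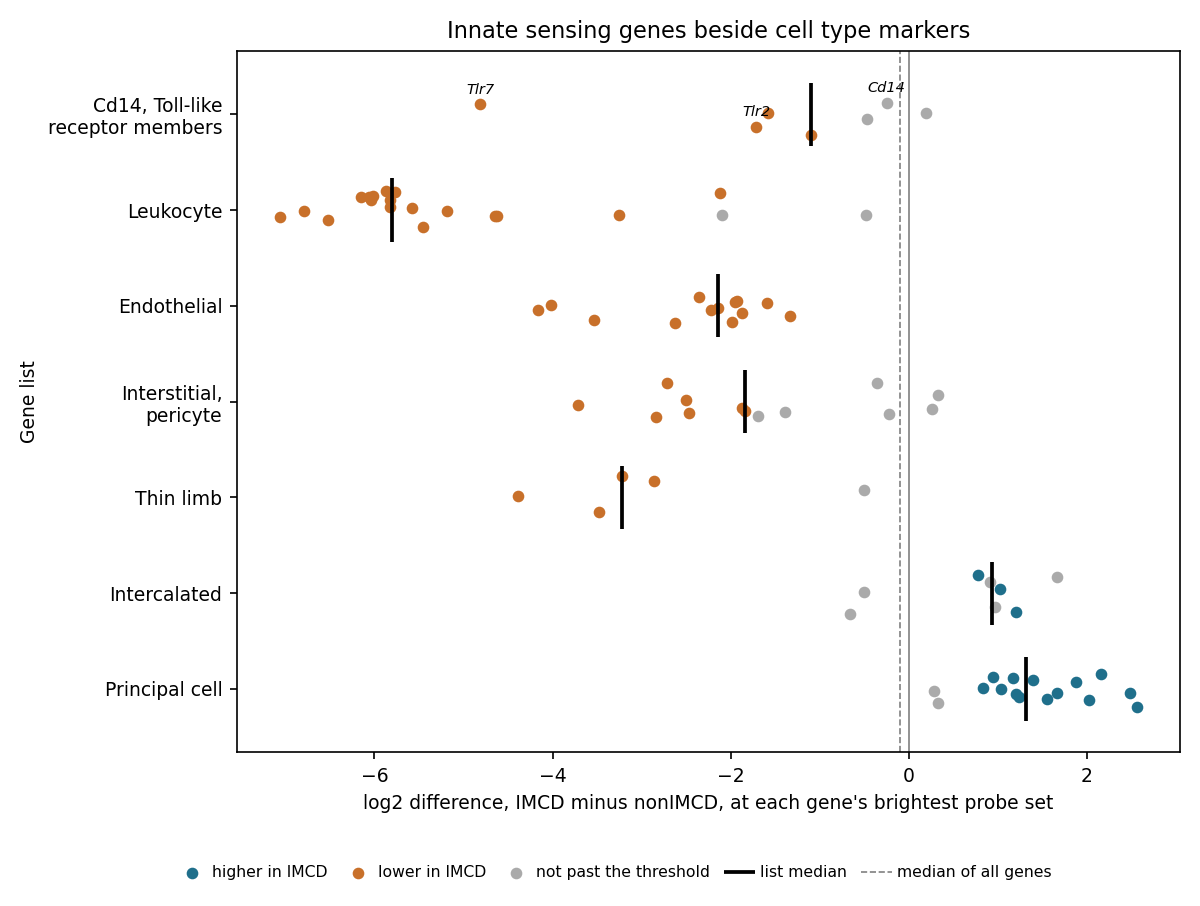
Log2 difference, IMCD minus nonIMCD, of the 7 innate sensing genes and of cell type markers, each at its brightest probe set. Blue points were higher in IMCD, orange points lower and grey points not past the threshold, and black bars are list medians. Points are fitted values. Those of genes under the highest negative control in IMCD, Tlr7 among them, are not drawn at their bounds and have no exact place. Cd14 (-0.25) lies well to the right of the leukocyte median (-5.80), as do Myd88 (0.19), Tlr4 (-0.47), Ly96 (-1.10) and Tlr2 (-1.71). The principal cell markers (median 1.31) lie furthest right.

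The genes whose pattern over the 6 arrays was most like a given gene were found by the root mean square distance between log2 values, each gene centred on its own mean, among genes with a mean log2 value of at least 8. For Tlr7, whose IMCD values are all under the highest negative control, these were Ly86, Alox5ap and Rgs10, at distances of 0.33, 0.33 and 0.33. Alox5ap encodes the 5-lipoxygenase-activating protein of leukotriene synthesis, and its intensity was 81.8 ± 26.7 in IMCD, against 2177 ± 147 in nonIMCD (SD, n = 3 each). For Cd14 they were Skic2, Mmaa and Cyp4v3, at distances of 0.024, 0.027 and 0.035. Cyp4v3 had 8021 ± 614 in IMCD, against 9560 ± 1225 in nonIMCD (SD, n = 3 each). Skic2, Mmaa and Cyp4v3 each differed by -0.25 in log2, like Cd14, and did not pass. The distance takes in the size of the differences as well as their shape, so those of Cd14 and Tlr7 are not to be compared. With 6 arrays in 2 groups this is a description and has no test.

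The balance of directions over all probe sets rested on the scaling. The test called 2663 probe sets higher (8.58% of 31042) and 4163 lower (13.4%), so that 39.0% of calls were higher. That share was 67.0% with median centring and 52.0% after quantile normalization, which moved the median difference of all probe sets, -0.10 as deposited, to 0.19 and 0.06. The 7 genes are to be read against that shift.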

How the data were processed

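RNA abundance was measured on 6 Affymetrix rat expression arrays, 3 of IMCD and 3 of nonIMCD. Each probe set has 1 deposited intensity per array, linear and already scaled by the authors: the mean after trimming 2% at each end was 1000.3 to 1000.4 on every array. For the summarising software, the sources used here name none. Intensities were analysed as log2(value + 16), which understates differences of dim genes, with lmFit and eBayes of limma 3.58.1 (R 4.3.3), two-sided and with no covariate. The 57 control probe sets were left out and Benjamini-Hochberg adjustment ran over the other 31042. The fit was tested on simulated data. The highest value of 3 probe sets for a bacterial tryptophan transcript (TrpnX, 78.4) over all arrays served as the negative control. It was read on nonIMCD array 1. The highest on each other array was lower: 22.4, 45.2 and 45.8 on IMCD arrays 1 to 3, and 13.0 and 19.9 on nonIMCD arrays 2 and 3. Where all arrays of a fraction lay under 78.4, the fold is a bound from mean log2 values, with the dim arrays set to 78.4. Symbols are those of the 2016 platform annotation, matched by identifier to RefSeq (GRCr8).

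The design text speaks of 3 pairs but does not say which arrays form them. Arrays of the same number deviated together from their group means in brighter probe sets, those above a mean log2 value of 8 (r = 0.14, 0.22 and 0.27 for numbers 1 to 3). Arrays of different numbers had r from -0.21 to 0.01 there. Over all probe sets the same-number values were smaller (r = 0.04, 0.04 and 0.06), and the age labels of the arrays numbered 1 differ. The main fit takes no account of such pairs. The replicate number was therefore used as a block in an alternative, given beside each named result whose call it changes.

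The members and lists were chosen with earlier results of these data known. Named genes were all members, up to 3 per list and direction with the largest difference past the threshold, and the 3 genes of most similar pattern. Alternatives were median centring, quantile normalization, pseudocounts of 1 and 64, leaving out probe sets with a mean log2 value under 7, an intensity trend, the block, and leaving out each array. Taking the median over a gene's probe sets changed nothing for the members, which have 1 each. The number of arrays limits the precision.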

Additional observations from a re-analysis of the deposited data

How the results depend on the processing

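Of 90 comparisons of a member's difference with its value under an alternative, 80 kept direction and side of the threshold. The exceptions were Lbp, which lost its call under 8 of its 12 alternatives, Myd88, which passed with median centring, and Cd14, whose log2 difference turned to 0.041 there, not past the threshold. With median centring 5389 probe sets were higher and 2652 lower, 1 member and 1 other receptor partner were higher, 2 adaptor genes were higher and 2 lower, and 8 inhibitors were higher. Under quantile normalization, the intensity trend and the removal of dim probe sets, 2 adaptor genes were higher. Inhibitors that were lower numbered 2 with a pseudocount of 64 and 3 each with the trend and without dim probe sets. With the replicate number as a block, 3 members were lower, 2 adaptor genes were lower, and 1831 probe sets were higher and 2993 lower. Beside Lbp, Tab1, Nfkb1 and Bcl3, the block ended the calls of 4 listed genes (Lcn2, Sele, Casp1 and Ripk2), and it changed no other call in the 5 lists of pathway and innate sensing genes. The cell marker lists were not refitted with it. Leaving out 1 array gave 1537 to 2248 higher and 2647 to 3221 lower probe sets, 3 to 4 lower members, 1 to 2 higher and 2 to 3 lower adaptor genes, and 2 to 4 higher inhibitors. The causes of these changes were not tested. Dim signals limit Lbp and Tlr7, whose IMCD values lie under the highest negative control, and Lbp falls out when dim probe sets are removed.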
